A study of Mus musculus with 6 samples.

Results

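The clustered histone genes are the genes for the 4 core histones (H2A, H2B, H3 and H4) and the linker histone H1 that lie side by side in a few gene clusters. Here they are the protein-coding rows of the gene table whose symbol begins with Hist1h, Hist2h, Hist3h or Hist4h, which gave 64 of 22554 rows. They comprise 5 H1, 17 H2A, 17 H2B, 12 H3 and 13 H4 genes. In mm10 the Hist1 cluster holds 51 of them on chromosome 13 (21715763 to 23764406), the Hist2 cluster 10 on chromosome 3 (96219865 to 96270132), the Hist3 cluster 2 on chromosome 11 and the Hist4 locus 1 on chromosome 6. The testis forms *Hist1h1t*, *Hist1h2aa* and *Hist1h2ba* had no row in the gene table, and 2 histone pseudogene rows were left out of the 64.

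The levels come from RNA-sequencing of group 2 innate lymphoid cells (ILC2s) sorted from the lungs of wild-type BALB/cByJ mice, aged 8 weeks by the labels and 5 to 8 weeks by the methods. IL-33 (rmIL-33, 0.5 µg a dose) was given intranasally 3 times to all mice, so both groups are IL-33-activated ILC2s (aILC2s). The sorted cells were then cultured for 24 h with rmIL-2 and rmIL-7 (10 ng/mL of each cytokine), together with either CD200-Fc (the ligand of the inhibitory receptor CD200R joined to an antibody Fc part; replicates 35, 36 and 38) or isotype control (replicates 16, 17 and 18). Some figure legends of the study also name rmIL-33 in this culture, and there was no library of uncultured or untreated cells, so the comparison is within stimulated, cultured cells. The mouse or culture behind each library is not stated in the labels or the methods, so p-values measure only how far these libraries differ from each other, which may be technical.

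The libraries held 20096555 to 33321709 expected counts. Levels of the listed ILC2 markers differed widely. *Gata3* stood at 1060 to 1190 CPM and *Il1rl1*, which encodes the IL-33 receptor ST2, at 523 to 775 CPM over the 6 libraries. The lowest of the listed ILC2 markers was *Thy1*, with 10.5 to 13.4 CPM. Markers of NK cells summed to 0 to 0.444 CPM, of myeloid cells to 3.69 to 18.6 CPM and of B cells to 14.6 to 20.2 CPM. Those of T cells summed to 251 to 276 CPM, mostly *Trbc1* and *Trbc2*. *Cd3g* stood at 21.5 to 25.5, *Cd3e* at 2.52 to 3.81 and *Cd3d* at 0.249 to 0.592 CPM, with *Cd4* at 0. Mast cell and basophil markers summed to 2.24 to 7.99 CPM. Endothelial and stromal markers summed to 18.5 to 26.3 CPM, mostly *Pecam1*. The epithelial sum was higher in all CD200-Fc libraries (29.8 to 35.3 against 24.8 to 25.9 CPM), all of it from *Epcam*, with *Sftpc*, *Scgb1a1* and *Krt8* at 0. The part of these markers in the histone levels was not tested. CPM here are counts per 1000000, from expected counts and the library size after TMM scaling. In bulk samples fewer cells of a kind and less RNA per cell cannot be told apart, which for histone genes includes the share of cells in S phase.

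A cell makes most of its new histones when it copies its DNA. Most clustered histone genes are switched on in S phase by NPAT, and their mRNAs end in a short stem-loop, bound by the protein SLBP, in place of a poly(A) tail. Some of them can also make transcripts with a poly(A) tail. By contrast, replacement histones such as H3.3 come from genes elsewhere in the genome, with ordinary polyadenylated mRNAs made throughout the cycle. The labels and methods do not state whether these libraries were made by poly(A) priming or selection, so the values are levels of captured RNA and the part that capture plays in them was not tested.

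The stem-loop can be read in the annotation. Of the 64 members, 45 had the 16-base histone stem-loop (a 6-base stem, a 4-base loop and the other arm of the stem) after the stop codon of a GENCODE M21 transcript. The same letters occurred anywhere in a transcript of 68 of 21877 protein-coding genes in all (0.311%), which is not a window of equal length. The consensus was searched on the transcript strand only. The forms below are shown because they separate H4 from the other types and include the members with the highest captured levels. They run 5′ to 3′ as DNA letters of mm10, with 5 bases on either side where the model reaches that far and the loop in capitals.
Hist1h2ap: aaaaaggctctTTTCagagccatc
Hist1h2ae: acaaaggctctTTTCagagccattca
Hist1h1e: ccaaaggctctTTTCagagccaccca
Hist1h4d: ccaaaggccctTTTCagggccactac
Hist1h3c: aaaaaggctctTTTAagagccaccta
Hist2h2ac: aaaaaggctctTTTTagagccaccaa
Hist1h4i: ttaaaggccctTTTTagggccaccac

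The form of *Hist1h2ap*, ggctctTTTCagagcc, was shared by 26 members (10 H2A, 8 H2B, 5 H3 and 3 H1 genes). The form of *Hist1h4d*, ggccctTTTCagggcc, was found in 7 H4 genes and in no member of another type. A loop ending in A, as in *Hist1h3c*, occurred in 5 members (3 H3 and 2 H2B genes). Of the 19 members without these letters, 11 had a gene model that stopped at the stop codon and 8 had sequence beyond it that did not hold them. In *Hist1h2af* and *Hist1h2ah* that sequence was 1 and 2 nt, too short for the 16 bases, and in *Hist2h3b* 37 nt. Such models do not show whether the gene has a stem-loop. Where the stem-loop was present, the model ended within 100 nt of it in 23 members and went on for more than 100 nt in 22. This difference in the models sets the length used for levels per kb. The median member of the first group had 6.65 CPM per kb and that of the second 1.14 CPM per kb, a description in which the longer length lowers the second value by construction.

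Captured histone RNA was assigned mostly to a single H2A gene. Of the 50-base stretches in the transcripts of this gene, 93.1% also occur in other genes. *Hist1h2ap* (chromosome 13, 21833026 to 21833507, minus strand) had 724, 767 and 767 CPM in isotype replicates 16, 17 and 18, and 721, 903 and 727 CPM in CD200-Fc replicates 35, 36 and 38. It made up 57.5% to 63.2% of all CPM of the 64 members in each library. Per kb of exon its mean level was 1590 CPM, 15.9 times that of *Hist1h2ae*, the next gene. Its model ends 3 nt after the stem-loop.

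Below *Hist1h2ap*, mean levels fell from 100 CPM per kb for the H2A gene *Hist1h2ae* to 74.8 for the H4 gene *Hist1h4d*, 65.1 for the linker histone gene *Hist1h1b* and 53.9 for another H1 gene, *Hist1h1e*. The H3 gene *Hist1h3i* followed with 27.7 CPM per kb. The ranges over the 6 libraries did not meet between *Hist1h2ap* (1500 to 1870) and *Hist1h2ae* (78.4 to 123), but those of neighbours met from *Hist1h2ae* through *Hist1h4d* (67.3 to 84.3) and *Hist1h1b* (36.6 to 113) to *Hist1h1e* (47.0 to 62.3). *Hist1h1e* did lie below *Hist1h2ae* and *Hist1h4d* in every library. By CPM the 5 leading genes held 84.2% to 86.3% of the total. In all, 16 members averaged over 10 CPM per kb, 30 lay between 1 and 10, and 18 lay under 1, with a median of 2.57 CPM per kb.

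**Figure D1:**
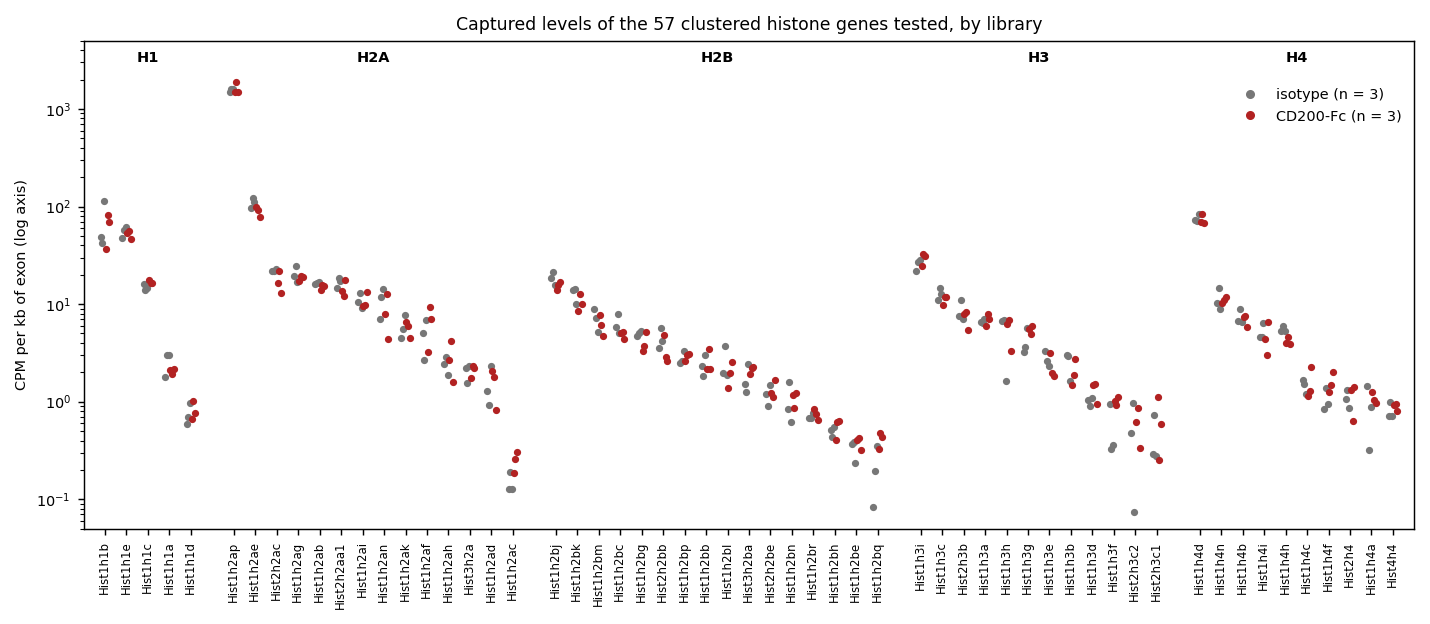
Captured level of each of the 57 tested members, in CPM per kb of exon on a log axis, with 1 point for each library (grey isotype, red CD200-Fc) and genes ordered by mean level within each histone type. *Hist1h2ap* stands at 1500 to 1870 CPM per kb, while 18 of the 64 members average under 1, and the grey and red points intermingle for most genes.

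By type, H2A took 80.5% to 83.4% of the summed CPM per kb in each library, H1 5.26% to 8.59%, H4 4.69% to 5.22%, H3 3.03% to 3.54% and H2B 2.52% to 3.38%. The core histones are needed in equal numbers in a nucleosome, and the captured RNA was far from equal. The other 16 H2A genes summed to 178 to 243 CPM per kb, against 1686 to 2081 with *Hist1h2ap*, and H2A stayed above H1 and H4 in every library without that gene. In H4, *Hist1h4d* alone held 77.2% to 83.8% of CPM. By CPM *Hist1h1e* held 50.8% to 64.5% of H1, while per kb *Hist1h1b* had the higher mean. H2B and H3 were spread more evenly, with 16.8% to 20.8% of CPM in *Hist1h2bj* and 25.3% to 33.3% in *Hist1h3i*.

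Near-identical copies limit how finely these levels can be assigned. The coding sequence of *Hist1h2ap* is identical to that of *Hist1h2ao*, and 93.1% of its 50-base windows also occur in another gene. Its windows are shared with 48 other genes, of which 16 are members. Within the identical pair, the expectation-maximization step of the authors placed nearly all CPM on *Hist1h2ap*, with *Hist1h2ao* at 0.000151 to 0.612 CPM. Their sum gave 725, 768 and 767 CPM in isotype and 722, 903 and 727 CPM in CD200-Fc libraries, which left the groups overlapping as before. *Hist2h2aa1* and *Hist2h2aa2*, also identical in coding sequence, stood at 7.08 to 10.8 and 0.0141 to 0.125 CPM. Over all members the median share of windows found elsewhere was 56.0%, with 5 members at 100% and 3 at 0% (*Hist1h1a*, *Hist1h1b* and *Hist2h2be*). Among the 6 members with the highest CPM, *Hist1h1b* with 0%, *Hist1h1c* with 8.5% and *Hist1h4d* with 10.2% shared the fewest windows. *Hist1h1e*, with 32.0% shared, lies over part of the gene model of *Hist1h2be*.

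H2A and H2B genes often sit head to head and share the stretch between them. Of 11 such pairs, with starts 176 to 302 nt apart, 8 had more H2A than H2B RNA per kb in all 6 libraries. *Hist1h2ap* exceeded its partner *Hist1h2br* by 2190 times per kb and by 478 times in CPM, as their merged exons measure 482 and 2212 nt. Of their 50-base windows, 93.1% and 88.7% are shared with other genes, so both ratios rest on how shared reads were assigned. Per kb, *Hist1h2ae* exceeded *Hist1h2bg* by 22.0 times and *Hist2h2ac* exceeded *Hist2h2be* by 15.4 times. *Hist1h2ag* and *Hist1h2bj*, 270 nt apart, were close to even in every library, with ratios of 1.06 to 1.25. *Hist1h2ao* exceeded *Hist1h2bq* per kb in 3 of 6 libraries, and its 0.231 CPM on average was below the 0.626 CPM of the H2B gene. *Hist1h2ah* and *Hist1h2ac* lay below their partners in all 6 libraries, at 0.227 and 0.0358 times the level of *Hist1h2bk* and *Hist1h2bc*. *Hist2h2be* and *Hist1h2ac* have models of 2620 and 2482 nt, which lowers their value per kb.

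**Figure D2:**
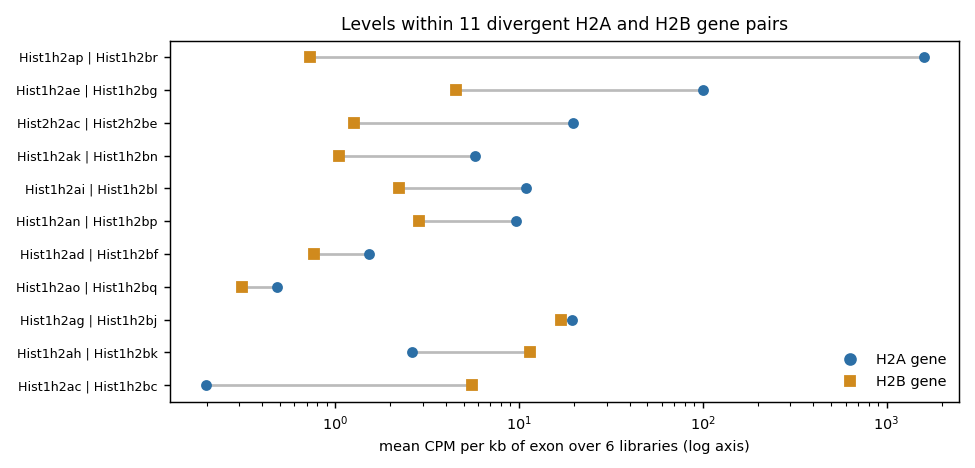
Mean level of the H2A gene (circle) and the H2B gene (square) in each of 11 divergent pairs, in CPM per kb of exon over 6 libraries on a log axis. The circle lies farthest to the right of the square for *Hist1h2ap* and *Hist1h2br* (2190 times per kb, 478 times in CPM), 2 pairs have the square to the right, and in the pair of *Hist1h2ag* and *Hist1h2bj* the points nearly coincide.

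*Hist1h1b* (chromosome 13, 21779883 to 21780625, minus strand), which encodes the linker histone H1.5, was the least even of the 6 members with the highest CPM. It had 36.02, 31.28 and 84.18 CPM in isotype replicates 16, 17 and 18, and 27.2, 60.2 and 51.24 CPM in CD200-Fc replicates 35, 36 and 38. The highest and lowest libraries differed 3.09-fold, and both groups held low and high libraries. Across the 6 libraries its SD was 0.62 on the log2 scale of CPM plus 0.1, against a median of 0.132 over the 10183 genes whose mean log2 CPM reached 2, among which it ranked 22 by this SD. Of the 19 members among those genes, *Hist2h2ac* followed with an SD of 0.325. Isotype replicate 18 and CD200-Fc replicates 36 and 38, the highest for *Hist1h1b*, were also the 3 highest for 9 other tested members. These were *Hist1h1d*, *Hist1h2af*, *Hist3h2a*, *Hist1h2bh*, *Hist1h2bp*, *Hist1h2bq*, *Hist3h2ba*, *Hist1h3a* and *Hist1h3i*. With *Hist1h1b* they made 17.5% of the 57, against 3.89% of all tested genes. *Hist1h1b* itself is in that share by construction, because it set the 3 libraries. This order was noticed after the values were seen, shared reads tie several of these genes together, and it was not tested.

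**Figure D3:**
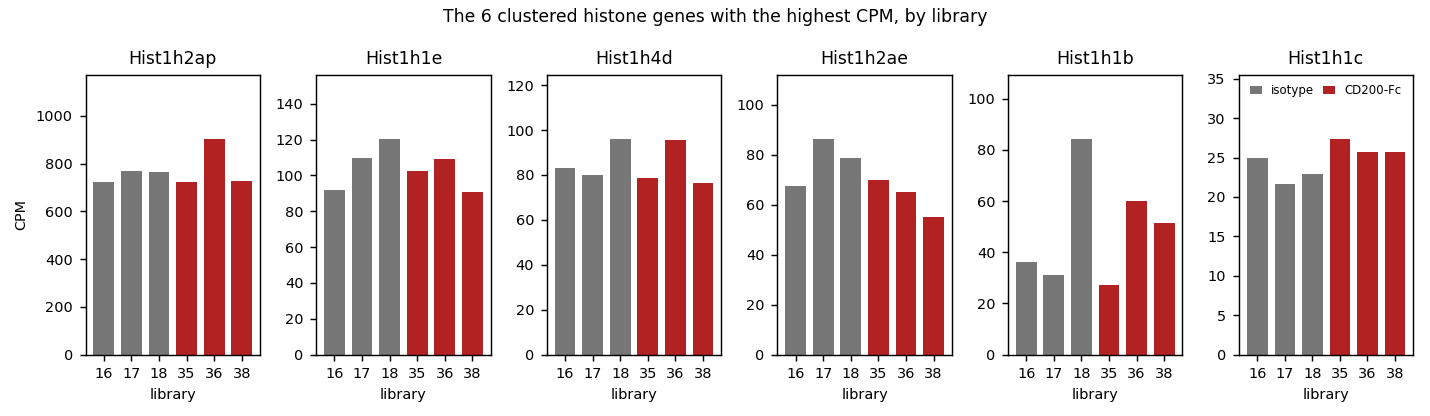
CPM of the 6 members with the highest CPM in each library (bars, grey isotype and red CD200-Fc, numbered by replicate). *Hist1h1b* varies from 27.2 to 84.2 CPM within and across the groups, while the bars of *Hist1h1c* are all higher with CD200-Fc than with isotype control.

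The total level of clustered histone RNA differed between CD200-Fc and isotype control by less than the spread of the libraries. The 64 members summed to 1187, 1277 and 1334 CPM with isotype control and to 1178, 1428 and 1186 CPM with CD200-Fc. The means were 1266 ± 73.8 and 1264 ± 142 CPM (SD, n = 3 each), and the groups overlapped. Without *Hist1h2ap* the sums were 457 to 525 CPM with CD200-Fc and 463 to 567 CPM with isotype control, again overlapping. No test was made of a sum over the members.

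Each histone type overlapped between the groups as well. H1 averaged 188 ± 42.3 CPM with isotype control and 181 ± 20.6 CPM with CD200-Fc, with the wide spread of the first coming from 237 CPM in replicate 18. H2A averaged 889 ± 36.8 and 900 ± 109 CPM, the latter raised by 1026 CPM in replicate 36. H2B averaged 43.6 ± 3.47 and 39.8 ± 1.72 CPM, H3 37.9 ± 3.50 and 39.5 ± 1.99 CPM, and H4 107 ± 6.90 and 104 ± 9.05 CPM (all SD, n = 3). Without *Hist1h2ap*, the other H2A genes summed to 122, 147 and 139 CPM with isotype control and to 119, 124 and 107 CPM with CD200-Fc. By cluster, the 10 Hist2 genes summed to 31.0, 36.6 and 32.9 CPM with isotype control and to 30.2, 28.9 and 29.2 CPM with CD200-Fc. The CD200-Fc libraries were all lower there, an untested sum, in a table in which 22.8% of single tested genes also had groups that did not overlap.

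**Figure D4:**
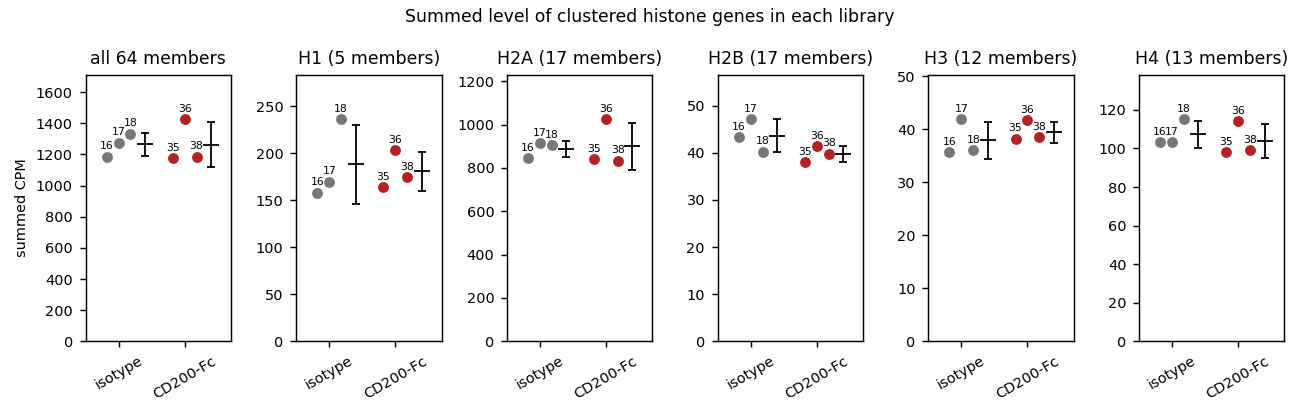
Summed CPM of all 64 members and of each histone type in each library, numbered by replicate (grey isotype, red CD200-Fc), with the mean and SD of each group (n = 3) beside the points and axes from 0. The groups overlap in every panel, and replicate 18 for H1 and replicate 36 for H2A lie highest.

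No single clustered histone gene passed the test. Of the 64 members, 57 were abundant enough to be tested, and edgeR called 0 of 57 at an adjusted p under 0.05, while 2.07% of all 14124 tested genes were called (1.48% higher and 0.595% lower). The other tools also called 0 members, where they called 9.88% (DESeq2), 2.34% (limma-voom) and 0.442% or 0.797% (limma-trend on the normalized signal, pseudocount 1 or 0.1) of all genes with an adjusted p. DESeq2 gave such a p to 10 of the 57. At an unadjusted p under 0.05 edgeR gave 1 member, against 17.1% of all tested genes. The 7 untested members (*Hist1h2ao*, *Hist2h2aa2*, *Hist2h2ab*, *Hist1h2bf*, *Hist1h4j*, *Hist1h4k* and *Hist1h4m*) reached at most 0.715 CPM in any library. The log2 fold changes, CD200-Fc over isotype, were above 0 for 30 and below 0 for 27 members, next to 6955 and 7169 of all tested genes. The median of the members was 0.04, next to -0.0035 over all tested genes. It was -0.03 over the 50 members with at least 10 counts in every library. By type the medians were -0.09 for H1, -0.03 for H2A, 0.05 for H2B, 0.15 for H3 and 0.01 for H4.

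The members were less precisely measured than most genes. Their median level was 2.44 CPM, against 21.2 CPM over all tested genes, and the 95% interval of a member's log2 fold change reached a median of 0.65 to either side, against 0.27. For 35 of the 57 members the interval lay within a 2-fold change in either direction, and for 13 within 1.5-fold. For the others a change of that size was not excluded by the interval.

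The abundant members had the narrowest intervals. *Hist1h2ap* had a log2 fold change of 0.06 (95% interval -0.10 to 0.21, edgeR adjusted p = 0.743), *Hist1h4d* of -0.04 (-0.24 to 0.16) and *Hist1h1e* of -0.09 (-0.29 to 0.11). For *Hist1h4d* the values were 83.2, 80.1 and 96.0 CPM with isotype control and 78.8, 95.8 and 76.6 CPM with CD200-Fc. For *Hist1h1e* they were 91.6, 109.7 and 120.2 CPM and 102.7, 108.9 and 90.7 CPM. The groups overlapped for both genes. *Hist1h1b*, with its wide spread, had a log2 fold change of -0.12 (-0.79 to 0.55), which became 0.46 without isotype replicate 18 and 0.15 without CD200-Fc replicate 35.

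The smallest p among the members was that of *Hist1h2ae*, an H2A gene on the minus strand of chromosome 13 (23570517 to 23571220). It had 67.7, 86.2 and 78.5 CPM with isotype control and 69.8, 65.0 and 55.2 CPM with CD200-Fc. Replicate 16 lay below replicate 35, so the groups overlapped. The log2 fold change was -0.29 (standard error 0.10, 95% interval -0.50 to -0.07, edgeR adjusted p = 0.152).

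The groups did not overlap for 3 of the 57 members (5.26%), where 22.8% of all tested genes had groups apart. *Hist1h1c*, which encodes the linker histone H1.2, had 25.0, 21.7 and 22.9 CPM with isotype control and 27.3, 25.7 and 25.7 CPM with CD200-Fc, all higher. Its log2 fold change was 0.18 (95% interval -0.04 to 0.40, edgeR adjusted p = 0.403). The H4 gene *Hist1h4h* and the H2A gene *Hist1h2ab* were lower in every CD200-Fc library, with 2.47, 2.80 and 2.49 against 1.87, 2.16 and 1.84 CPM for *Hist1h4h* (log2 fold change -0.40, -1.01 to 0.21). *Hist1h2ab* had 7.62, 7.75 and 7.99 against 6.58, 7.47 and 7.17 CPM (log2 fold change -0.14, -0.48 to 0.21).

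The largest positive values belonged to genes near the limit of detection. The abundance filter asks for enough counts in at least 3 libraries, and the 3 genes below met it only with their CD200-Fc libraries counted. Their isotype libraries alone would not have passed, so the filter favoured positive values here. *Hist1h2bq* had 0.167 to 0.709 CPM with isotype control and 0.666 to 0.955 CPM with CD200-Fc (log2 fold change 0.99, 95% interval -0.20 to 2.17). *Hist1h3f* (0.89, -0.15 to 1.94) and *Hist1h2ac* (0.76, -0.37 to 1.90) followed, and none of them passed the test. Single libraries moved these values: *Hist1h2bq* became 0.60 without isotype replicate 16 and 1.56 without isotype replicate 18, and *Hist1h3f* became 1.60 without isotype replicate 16. *Hist1h2bq* shares 97.3% of its windows with other genes, and its sum with the neighbouring copy *Hist1h2br* was 1.66 to 2.41 CPM with isotype control and 2.30 to 2.61 CPM with CD200-Fc. At the other end stood *Hist1h2an* and *Hist1h2bl* with *Hist1h4h*, each at -0.40 and each with an interval that crosses 0. Without 1 library *Hist1h2an* ranged from -0.84 to -0.10 and *Hist1h2bl* from -0.61 to -0.03.

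**Figure D5:**
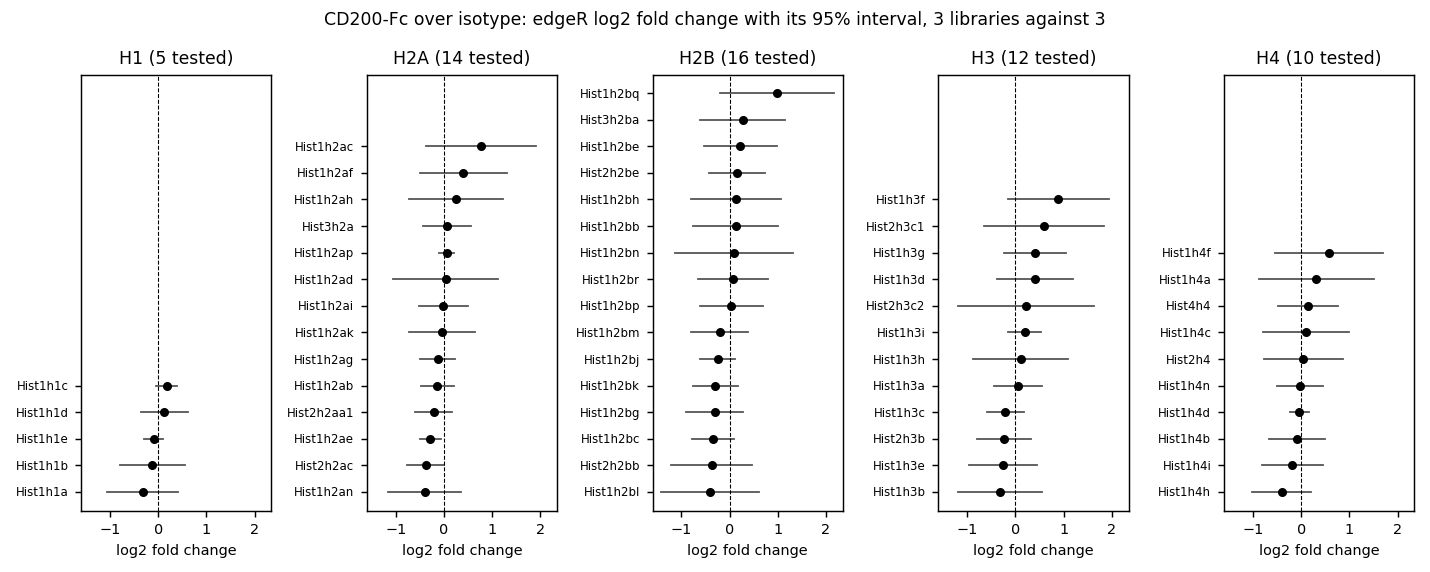
Log2 fold change (CD200-Fc over isotype, dots) of each of the 57 tested members with its 95% interval (lines) from edgeR's quasi-likelihood fit, by histone type, 3 libraries against 3. Apart from *Hist1h2ae* (-0.50 to -0.07), every interval crosses 0, and the narrowest belong to abundant genes such as *Hist1h2ap*.

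The other leading members of each type gave the same picture of overlapping groups. In H2A, *Hist2h2ac* had 11.4, 11.2 and 11.8 CPM with isotype control and 8.55, 11.3 and 6.69 CPM with CD200-Fc (log2 fold change -0.37, -0.76 to 0.01). Its CD200-Fc values were thus more scattered than its isotype values. In H2B, the log2 fold changes were -0.25 for *Hist1h2bj* (-0.62 to 0.12), -0.30 for *Hist1h2bk* (-0.76 to 0.17) and -0.21 for *Hist1h2bm* (-0.80 to 0.39). In H3 they were 0.19 for *Hist1h3i* (-0.15 to 0.54), -0.21 for *Hist1h3c* (-0.58 to 0.17) and -0.24 for *Hist2h3b* (-0.79 to 0.32). *Hist2h3b* shares all of its windows with other genes. In H4 they were -0.02 for *Hist1h4n* (-0.51 to 0.46) and -0.08 for *Hist1h4b* (-0.66 to 0.50).

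A set of 4 members has counterparts known in human cells to make polyadenylated transcripts, namely *Hist1h1c*, *Hist1h2ac*, *Hist1h2bc* and *Hist2h2be*. Their mean levels were 15.8, 0.199, 5.57 and 1.27 CPM per kb. Their log2 fold changes were 0.18, 0.76, -0.35 and 0.16, and 0 of 4 passed. Their summed level was 32.9 to 35.1 CPM with isotype control and 35.2 to 36.8 CPM with CD200-Fc. The groups narrowly did not overlap in this untested sum, as was so for 22.8% of single tested genes. Most of the sum was *Hist1h1c*, with 21.7 to 27.3 CPM over the 6 libraries.

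Replacement histones were captured at a level close to that of the clustered genes per kb, but at a higher level in CPM. Those of the 15 listed genes that had a row summed to 1891 to 2095 CPM per kb in each library, against 2028 to 2498 for the 64 clustered genes. Of the clustered level per kb, *Hist1h2ap* alone held 1500 to 1870. In CPM the replacement histones summed to 4486 to 4954 and the clustered genes to 1178 to 1428. *H3f3b* and *H3f3a*, which both encode H3.3, stood at 328 and 208 CPM per kb, each above every clustered H3 gene, of which *Hist1h3i* was highest with 27.7. With CD200-Fc, 0 of 11 tested replacement histones passed (median log2 fold change -0.02). *H3f3b* changed by -0.07 (-0.17 to 0.02), *H3f3a* by -0.06 (-0.17 to 0.05), *H2afv*, which encodes an H2A.Z form, by -0.15 (-0.31 to 0.01) and the linker variant gene *H1f0* by 0.13 (0.00 to 0.26), without passing adjustment.

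The genes of histone mRNA synthesis and processing were captured, and none passed edgeR's test. *Slbp*, which encodes the stem-loop binding protein, had 356, 367 and 376 CPM with isotype control and 378, 401 and 392 CPM with CD200-Fc. All CD200-Fc libraries were thus higher, but the log2 fold change was 0.09 (95% interval -0.01 to 0.19, edgeR adjusted p = 0.359). *Npat*, which encodes the activator of clustered histone genes, had 39.3 to 46.2 CPM and 40.5 to 45.4 CPM (log2 fold change -0.01, -0.21 to 0.18). Of 21 tested factors of histone mRNA synthesis, processing and decay, 0 passed and the median log2 fold change was -0.01. Those with the smallest p were *Eri1* (0.13), a nuclease that trims the stem-loop end, *Casp8ap2* (0.25), a component of histone locus bodies, *Lsm10* (-0.23), a subunit of the U7 particle, and *Snrpb* (-0.11), a shared Sm protein. Of 24 histone chaperones 0 passed (median 0.04), including *Dnajc9* (0.18, edgeR adjusted p = 0.0607), *Supt16* (0.22, adjusted p = 0.111), *Chaf1a* (0.13) and *Anp32e* (0.12). DESeq2 did call *Dnajc9* (adjusted p = 0.00478) and *Supt16* (adjusted p = 0.0273) higher. *Dnajc9* was also called by limma-voom (adjusted p = 0.0452) and by edgeR on genes with at least 10 counts in every library (adjusted p = 0.048), and *Supt16* by edgeR without isotype replicate 16 (adjusted p = 0.0313).

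Among genes of S phase 3 were called, and the difference from the clustered histones was not tested. Of 55 tested S-phase genes, 3 were called higher and none lower by edgeR, against 1.48% of all tested genes called higher. Their median log2 fold change was 0.04, as for the clustered histones, but 37 lay above 0 and 18 below, against 30 and 27. Of all tested genes 6955 lay above 0 and 7169 below. At an unadjusted edgeR p under 0.05 there were 11, against 1 clustered histone and 17.1% of all tested genes. The untested sum of the S-phase genes was 9860 to 10310 CPM with isotype control and 10420 to 10810 CPM with CD200-Fc. The groups did not overlap there, as was so for 22.8% of single tested genes. *Ccna2*, which encodes cyclin A2, had 392, 369 and 402 CPM with isotype control and 447, 460 and 436 CPM with CD200-Fc (log2 fold change 0.21, adjusted p = 0.0483). *Usp1*, a deubiquitinase of replication-linked repair, rose by 0.26 (adjusted p = 0.0417) and *Hells*, a chromatin remodeller, by 0.26 (adjusted p = 0.0498), while *Uhrf1* (0.22, adjusted p = 0.0554) did not pass. None of the 3 calls held under upper quartile scaling or without isotype replicate 17 or 18 or any 1 of the CD200-Fc libraries, where 0 of the 55 genes were called. The normalized signal also gave 0. Other settings gave more calls, all higher: 6 with DESeq2 and 4 each with limma-voom, no filter and at least 10 counts in every library.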

How the data were processed

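RNA-sequencing of 6 libraries of lung aILC2s was analysed, 3 with CD200-Fc and 3 with isotype control, grouped by the sample titles. Per the labels and methods, cDNA was made from 10 ng of RNA and sequenced on an Illumina NextSeq, and the submitters' processing notes name bcl2fastq 2.17.1.14, STAR 2.5.3a, Partek and mm10. The expected counts were deposited by the authors as Partek expectation-maximization estimates, which share reads among similar genes and need not be whole. The normalized signal deposited by the authors is the expected count plus 1 times 1 factor per library, a form read from the values, and served only for alternatives. Strandedness of the libraries and of the counting is not stated.

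Counts were rounded, filtered by filterByExpr, scaled by TMM and tested with edgeR 4.0.16 (quasi-likelihood, 14124 of 22554 genes, Benjamini-Hochberg adjusted p under 0.05, R 4.3.3). On simulated data the fit recovered 77 of 100 genes changed 1.5-fold and 99 of 100 changed 2-fold, with 11 false calls. The changed genes had a mean log2 CPM of at least 2, which 19 members reached, so recovery of lower members was not tested. Total counts were 20096555 to 33321709 per library. Intervals are 95% intervals of the fit, not adjusted for the number of genes. Levels are CPM of unrounded expected counts, per kb of the merged exons of GENCODE M21, whose coordinates matched all 64 members. Shared windows are 50-base stretches found in the transcripts of another gene. Figures used Python 3.11.15 and matplotlib 3.10.9. With 3 libraries against 3, an exact permutation test cannot give a p below 0.1, so none is given.

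The members and lists were chosen with earlier results of these data known. Genes named are the 3 tested members of each type with the highest CPM per kb of gene span, the 3 highest and 3 lowest log2 fold changes, the listed polyadenylated forms, up to 4 genes with the smallest p in each of 4 other lists, *Slbp* and *Npat*. Other genes were named for a value after it was seen. Alternatives were upper quartile and total count scaling, DESeq2 1.42.0, limma 3.58.1 (voom, and trend on the normalized signal with pseudocounts of 1 and 0.1), no filter, at least 10 counts in every library, unrounded counts and leaving out each library.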

Additional observations from a re-analysis of the deposited data

How the results depend on the processing

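No clustered histone gene was called under any of the 15 alternatives to the edgeR fit, in which 0 to 3 members had an unadjusted p under 0.05. The log2 ratio of the summed level was 0.00 and lay between -0.10 and 0.05 over its alternatives, moving by less than the SD of 0.13 between libraries. The H2A sum moved to -0.22 without *Hist1h2ap*, and the mean log2 fold change over tested H2B members was -0.01, against -0.13 for the sum. The 3 calls among the other lists became 0 with upper quartile scaling and with the normalized signal at either pseudocount, 1 with total count scaling, 8 with DESeq2, 5 with limma-voom and 5 with at least 10 counts in every library. They ranged from 0 to 4 when 1 library was left out, and all calls were higher with CD200-Fc.

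Some log2 fold changes near 0 changed sign when 1 library was left out. They ranged from -0.37 to 0.46 for *Hist1h1b*, -0.19 to 0.01 for *Hist1h1e* and -0.06 to 0.12 for *Hist1h2ap*. The ranges were -0.15 to 0.04 for *Hist1h4d*, -0.16 to 0.21 for *Hist1h4n*, -0.15 to 0.09 for *Hist1h4b*, -0.03 to 0.34 for *Hist2h2be* and -0.07 to 0.04 for *Npat*. *Hist1h4n* also became 0.00 with limma-voom and *Npat* 0.00 with no filter. The cause was not tested. Without 1 library, low members also moved in size, such as *Hist1h3f* (0.63 to 1.60) and *Hist1h2bq* (0.60 to 1.56). Of 612 values of the 41 named genes under alternatives, 556 kept their direction and side of the threshold, 28 lost the call, 10 gained one and 18 changed sign.

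No paired analysis was possible because the 2 groups share no replicate number. Low counts limit the low members, and reads shared among copies limit which gene a level belongs to.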

Other observations

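Of the 2 pseudogene rows left out of the members, *Hist1h2al* had 4.02, 4.70 and 5.09 CPM in isotype replicates 16, 17 and 18 and 4.76, 4.34 and 4.94 CPM in CD200-Fc replicates 35, 36 and 38, above the median member level of 2.44 CPM. Its log2 fold change was 0.03 (edgeR adjusted p = 0.967). *Hist1h2aj* did not exceed 0.234 CPM in any library.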
